A study of Homo sapiens with 8 samples.

Results

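The genes of the MCM helicase and of replication origin licensing were followed across HepG2 and Huh7 cells. These are MCM2, MCM3, MCM4, MCM5, MCM6, MCM7, CDC45, CDT1, CDC6 and GMNN. They were found by gene symbol and were selected on values measured here: the SR and WT levels of these same libraries were known when the 10 genes were proposed. SR versus WT and Huh7 versus HepG2 values of the 10 are therefore a description. Where their number past a threshold is given beside that of all genes, it is not a test of them. They are 10 of 63241 Ensembl gene identifiers with a value, and all 10 passed the filter on low values that left 15173 genes for testing.

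Both lines derive from human liver cancers, and SR cells were obtained from each by exposure to stepwise higher amounts of sorafenib, a multikinase inhibitor. The 4 groups, with 2 mRNA libraries each, were HepG2 WT and Huh7 WT (genotype WT, treatment control) and HepG2 SR and Huh7 SR (genotype SR, treatment sorafenib), all from batch 1. Each line has 1 SR derivation, and SR cells also carry the sorafenib label, so resistance and drug exposure cannot be told apart. Nothing states that the libraries of a group came from separate cultures, so p-values measure the spread between these libraries. That spread may be technical in part, and it also holds the large differences between replicates given below.

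Eukaryotic replication origins are licensed in late mitosis and G1. The origin recognition complex (ORC) and CDC6 receive CDT1 bound to the MCM2 to MCM7 ring, and the ring is closed around DNA in an inactive form. In S phase the kinases CDK and DDK turn it into the active helicase by adding CDC45 and the GINS complex, while geminin, the product of GMNN, binds CDT1 and prevents loading a second time. Many of these genes are known targets of E2F factors, are expressed in proliferating cells and are low in resting adult hepatocytes.

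The libraries did not sort by cell line in their expression. Across the 15173 tested genes, Pearson's r of log2(FPKM + 1) was between 0.914 and 0.977 among 5 libraries, namely both HepG2 WT libraries, HepG2 SR replicate 1 and the replicates 2 of Huh7 WT and Huh7 SR. Against those 5, the remaining 3 (HepG2 SR replicate 2 and the replicates 1 of Huh7 WT and Huh7 SR) reached only 0.731 to 0.819. Those 3 were not a single group either: the Huh7 replicates 1 had r = 0.965 with each other, and HepG2 SR replicate 2 had 0.815 and 0.846 with them. A fit of the 5 like libraries alone is given below where it moves a result. It holds 1 library each of HepG2 SR, Huh7 WT and Huh7 SR, so its spread comes from the HepG2 WT pair alone (1 residual degree of freedom), and its calls are no test of SR against WT. The Huh7 replicates 2 were thus nearer to 3 of the HepG2 libraries (0.914 to 0.977) than to the Huh7 replicates 1 (0.731 to 0.760). These libraries go against their cell line labels, whether they were exchanged was not tested, and all values within a line or between the lines rest on the labels, which were kept. Genes are not independent replicates. HepG2 WT replicate 2 also listed 38276 genes above 0, against 27188 to 29071 in the others.

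The labelled cell type was checked against markers. All 9 hepatocyte markers were above 0 in all 8 libraries, though some were low in part of them. Their summed level was 4521 and 5492 FPKM in HepG2 WT and 5547 and 7668 FPKM in HepG2 SR, with ALB the most abundant. In Huh7 it was 635 and 1108 FPKM in WT and 851 and 5303 FPKM in SR. There ALB led in both replicates 2, and FGB led in both replicates 1, at 380 FPKM in WT and 327 FPKM in SR. The 4 biliary and progenitor markers summed to 904, 393, 460 and 65.3 FPKM in HepG2 WT and then SR, and to 15.5, 308, 15.9 and 413 FPKM in Huh7. KRT19 was the most abundant of them except in HepG2 SR replicate 2 (SOX9) and the Huh7 replicates 1 (EPCAM), and KRT7 was listed at 0 in HepG2 SR replicate 2.

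Among markers of other cell types, the leukocyte and macrophage genes LYZ and CD68 were expressed. The 8 fibroblast markers summed to 1.53, 5.49, 1.56 and 9.03 FPKM in HepG2 and to 2.66, 0.732, 1.65 and 1.65 FPKM in Huh7, WT before SR. PDGFRB led in 5 libraries, COL1A2 in HepG2 SR replicate 2 and COL3A1 in the Huh7 replicates 1, while POSTN and DCN were at or near 0. The 4 endothelial markers summed to 0.787, 0.844, 1.27 and 0.939 FPKM in HepG2 and to 4.52, 1.45, 3.02 and 0.772 FPKM in Huh7, led by PECAM1, with KDR at or near 0. The 5 leukocyte markers summed to 245, 289, 905 and 824 FPKM in HepG2 and to 61.2, 73.9, 83.6 and 1065 FPKM in Huh7. LYZ was the most abundant leukocyte marker in each library, CD68 ran from 3.94 FPKM in Huh7 WT replicate 1 to 29.1 FPKM in Huh7 WT replicate 2, and the defining markers PTPRC and CD3E were at or near 0. LYZ and the hepatocyte sum were thus higher in the SR than in the WT library of each same-numbered pair, but other markers were not. CD68 was lower in SR in HepG2 replicate 1 (13.6 against 19.6 FPKM) and Huh7 replicate 2 (5.04 against 29.1 FPKM), and slightly higher in the other pairs. Within the hepatocyte sum, APOA1 was lower in SR in both HepG2 pairs (1195 against 1368 and 439 against 1107 FPKM) and higher in both Huh7 pairs. The biliary and progenitor sum was lower in SR in both HepG2 pairs and higher in both Huh7 pairs. The part of all these markers in the values given here was not tested.

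Promoter sequence is shown because the 10 genes shared a direction in these libraries and their promoters are known to bind E2F. RefSeq windows of 300 bases (250 before and 50 after a transcription start, GRCh38.p14) were given for 8 of the 10 genes, 13 windows in all, and the genes without a window were MCM4 and MCM5. The E2F words TTTCGCGC, TTTCGCGG, TTTGGCGC, TTTGGCGG and TTTCCCGC and the letters CCAAT were searched on both strands, and these letters were chosen after the expression values were seen. Below, 1 stretch per gene is shown, and capitals mark the E2F words, also where a word reads on the other strand. MCM3, MCM7 and CDC6 each have a further E2F word in the same window that is not printed.
MCM2, chr3:127598404-127598433, plus strand: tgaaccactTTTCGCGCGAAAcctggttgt
MCM3, chr6:52284728-52284757, minus strand: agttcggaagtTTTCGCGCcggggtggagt
MCM6, chr2:135876498-135876619, minus strand: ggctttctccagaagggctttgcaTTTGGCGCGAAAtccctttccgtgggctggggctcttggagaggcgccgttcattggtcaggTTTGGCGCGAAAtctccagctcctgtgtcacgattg
MCM7, chr7:100101388-100101417, minus strand: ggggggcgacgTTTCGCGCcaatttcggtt
CDC45, chr22:19479884-19479913, plus strand: aggagccgtgaTTTGGCGGgagtcttgacc
CDT1, chr16:88803747-88803776, plus strand: ggcgcccGCGGGAAATTTGGCGGgaaccgc
CDC6, chr17:40287840-40287869, plus strand: cgaggccgggcTTTGGCGGgaggtgggaac
GMNN, chr6:24775309-24775364, plus strand: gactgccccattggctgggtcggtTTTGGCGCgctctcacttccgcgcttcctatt

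The MCM6 and GMNN stretches lay in no exon of GENCODE release 29, and each of the others printed lay in an exon of its own gene. Of the words not printed, that of MCM3 lay in no exon, that of MCM7 in an exon of AP4M1 and MCM7, and that of CDC6 in an exon of CDC6. An E2F word stood in 8 of the 13 windows and in at least 1 window of each of the 8 genes, against 1312 of 35116 RefSeq windows of the same length (3.74%) and 4.51% of all genes with a window. In MCM2 and MCM6 a word and the reverse of a word overlapped by 4 bases to form a run of 12 bases, once in MCM2 and at 2 places in MCM6. Such a run was found in 13 of the 35116 windows (0.037%). In CDT1, 2 words stood side by side on opposite strands without overlap. CCAAT was in 9 of the 13 windows and in 6 of the 8 genes, not in those of MCM2 and CDT1, against 34.61% of all windows and 39.72% of all genes with a window. In MCM7 the last letter of the word next to the start was also the first letter of a CCAAT, and no other E2F word of the 8 genes overlapped a CCAAT. A match says only that these letters are in the window and not that a factor binds there.

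**Figure D1:**
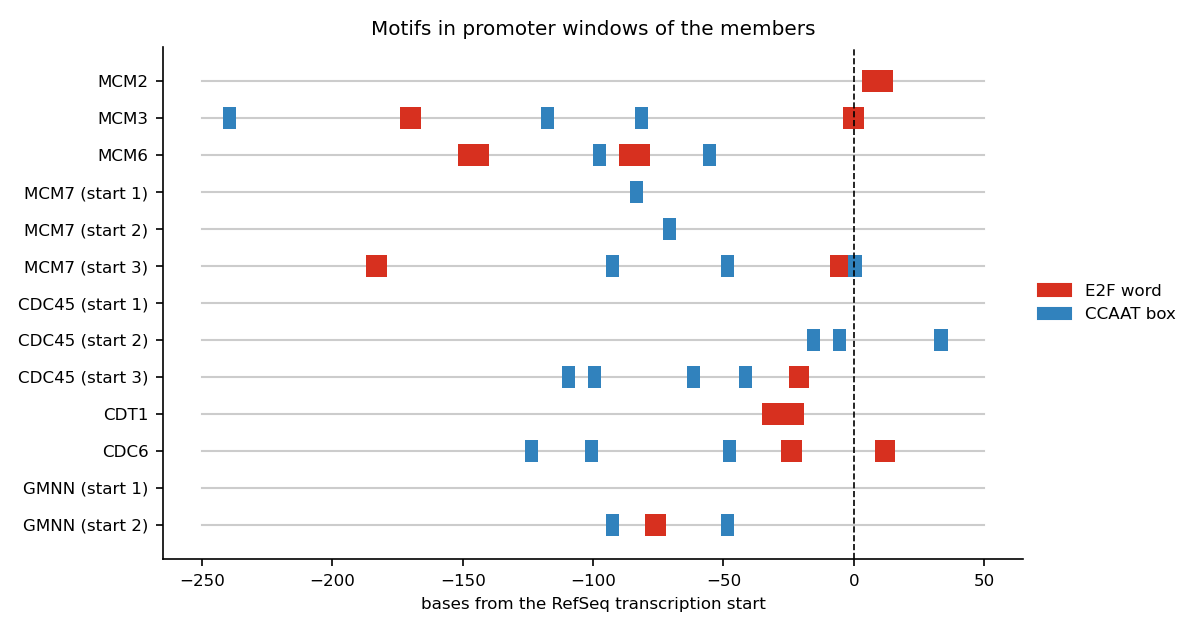
E2F words (red) and CCAAT (blue) in the 13 RefSeq promoter windows of 8 genes, drawn by distance in bases from the transcription start (dashed line). The E2F words of CDC45, CDT1, CDC6 and MCM2 lay within 50 bases of the start, and 8 of the 13 windows held such a word.

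The subunits MCM3 and MCM7 had the highest levels of the ring. MCM3 (ENSG00000112118, chr6:52264009-52284881 in GRCh38, minus strand) had 16.4 and 36.6 FPKM in the HepG2 WT libraries, and its HepG2 SR values were 88.3 and 129 FPKM. In Huh7 it stood at 32.0 and 18.1 FPKM in WT and at 84.8 and 69.0 FPKM in SR. The 4 SR libraries all lay above the 4 WT libraries, the lowest SR library being Huh7 SR replicate 2. The group means were 26.5 ± 14.3 (HepG2 WT), 109 ± 28.8 (HepG2 SR), 25 ± 9.85 (Huh7 WT) and 76.9 ± 11.2 FPKM (Huh7 SR; SD, n = 2 each). Fewer proliferating cells and less RNA per cell cannot be told apart in such bulk libraries.

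MCM7 (ENSG00000166508, chr7:100092728-100101940, minus strand) is a subunit of the catalytic core together with MCM4 and MCM6. It had 20.9 and 37.6 FPKM in HepG2 WT, 76.0 and 162 FPKM in HepG2 SR, 43.6 and 16.0 FPKM in Huh7 WT and 95.2 and 39.8 FPKM in Huh7 SR. In HepG2 both SR libraries were above both WT libraries. In Huh7 each SR library was above the same-numbered WT library, but SR replicate 2 lay below WT replicate 1. The microRNA genes MIR25, MIR93 and MIR106B lie inside MCM7 on its strand, and AP4M1 overlaps it on the other strand. Whether strand was used in counting is not stated, so reads of these genes cannot be told apart from those of MCM7 where they overlap.

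MCM4 (ENSG00000104738, on chromosome 8) measured 15.3 and 26.7 FPKM in HepG2 WT, 36.6 and 44.4 FPKM in HepG2 SR, 22.8 and 12.2 FPKM in Huh7 WT and 54.4 and 24.2 FPKM in Huh7 SR. Its lowest SR value, in Huh7 SR replicate 2, was under its highest WT value, in HepG2 WT replicate 2. MCM2 (ENSG00000073111, chr3:127598223-127622436, plus strand), a subunit with a histone-binding tail, reached 10.7 and 17.7 FPKM in HepG2 WT, 32.1 and 41.4 FPKM in HepG2 SR, 12.7 and 6.87 FPKM in Huh7 WT and 33.7 and 15.8 FPKM in Huh7 SR. As for MCM4, the groups overlapped only through Huh7 SR replicate 2 and HepG2 WT replicate 2. MCM2 is overlapped on the other strand by TPRA1 and AC023593.1, with the same limit on strand, and MCM3, MCM4, MCM5, MCM6, CDC45, CDT1, CDC6 and GMNN are overlapped by 0 genes of GENCODE release 29.

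MCM5 (ENSG00000100297, chr22:35400063-35425430, plus strand), which forms with MCM2 the gate through which DNA enters the ring, was lower. It was found at 6.99 and 10.4 FPKM in HepG2 WT, 18.2 and 38.9 FPKM in HepG2 SR, 7.93 and 4.39 FPKM in Huh7 WT and 25.4 and 15.0 FPKM in Huh7 SR. All 4 SR libraries lay above all 4 WT libraries. MCM6 (ENSG00000076003, chr2:135839626-135876426, minus strand), whose promoter held the 2 overlapping pairs of words shown above, spread most between replicates, with an SD of 1.09 on the log2 scale. It had 2.78 and 4.2 FPKM in HepG2 WT, 11.3 and 26.5 FPKM in HepG2 SR, 14.1 and 5.30 FPKM in Huh7 WT and 41.0 and 6.34 FPKM in Huh7 SR. Huh7 SR replicate 2 was thus close to Huh7 WT replicate 2 and under Huh7 WT replicate 1.

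Added over the 6 subunits, MCM2 to MCM7 reached 73.0 and 133 FPKM in HepG2 WT, 263 and 442 FPKM in HepG2 SR, 133 and 62.8 FPKM in Huh7 WT and 334 and 170 FPKM in Huh7 SR. The mean sums were 103 ± 42.6, 352 ± 127, 98.0 ± 49.7 and 252 ± 116 FPKM in that order (SD, n = 2 each). Each SR library was above each WT library, with 170 FPKM in Huh7 SR replicate 2 the nearest to WT. The subunits act in equal numbers in the ring, but their transcripts were not equal. The highest subunit, MCM7 or MCM3 in each library, was between 3.75 times (Huh7 SR replicate 1) and 10.9 times (Huh7 SR replicate 2) the lowest in FPKM. The lowest was MCM6 in the 4 HepG2 libraries and in Huh7 SR replicate 2, and MCM5 in the other 3 libraries.

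As a share of the summed FPKM, MCM3 ran from 22.4% (HepG2 WT replicate 1) to 40.6% (Huh7 SR replicate 2) and MCM7 from 23.4% (Huh7 SR replicate 2) to 36.6% (HepG2 SR replicate 2). MCM6 had the widest relative range, from 3.16% in HepG2 WT replicate 2 to 12.3% in Huh7 SR replicate 1. Its share was between 3.16% and 5.99% in the 4 HepG2 libraries, 10.6% and 8.43% in Huh7 WT and 12.3% and 3.73% in Huh7 SR. Huh7 SR replicate 2 thus had a HepG2-like MCM6 share. MCM4 was 20.9% and 20% of the sum in HepG2 WT and 14% and 10% in HepG2 SR, and 17.1% and 19.5% in Huh7 WT and 16.3% and 14.2% in Huh7 SR. For MCM4 each SR share was under each WT share, although its level was higher in SR within each line. MCM2 ran between 9.26% and 14.6% and MCM5 between 5.96% and 9.59%, each with its highest share in HepG2 WT replicate 1.

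**Figure D2:**
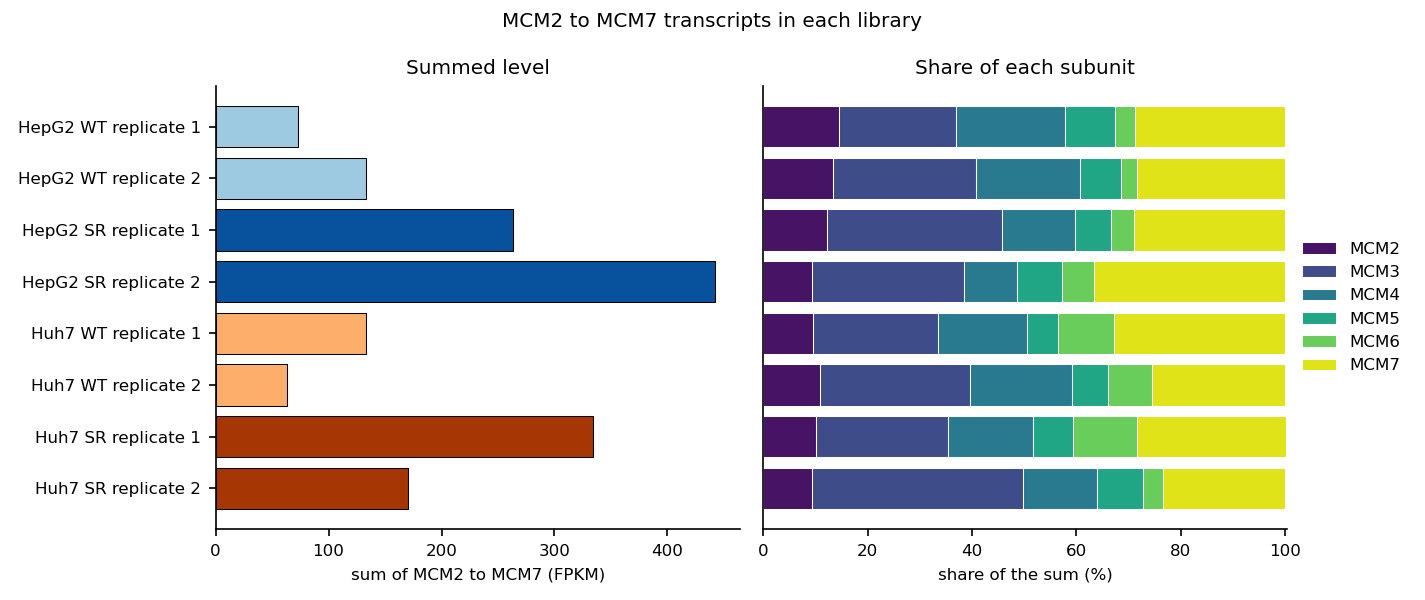
Summed FPKM of MCM2 to MCM7 in each library (left, bars from 0) and the percent of that sum given by each subunit (right). The sums ran from 62.8 FPKM in Huh7 WT replicate 2 to 442 FPKM in HepG2 SR replicate 2, and MCM3 and MCM7 made up the largest shares.

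CDT1 and CDC6 are the loading factors. CDT1 (ENSG00000167513, chr16:88803213-88809258, plus strand), which brings the ring to ORC and CDC6, measured 4.23 and 9.04 FPKM in HepG2 WT, 15.3 and 16.2 FPKM in HepG2 SR, 5.41 and 2.10 FPKM in Huh7 WT and 14.2 and 10.9 FPKM in Huh7 SR. Its SR and WT libraries did not overlap, and the group means were 6.64 ± 3.40, 15.8 ± 0.648, 3.76 ± 2.34 and 12.5 ± 2.33 FPKM (SD, n = 2 each). CDC6 (ENSG00000094804, chr17:40287633-40304657, plus strand), the ATPase that completes the loading platform, reached 2.36 and 10.3 FPKM in HepG2 WT, 13.0 and 22.4 FPKM in HepG2 SR, 12 and 8.37 FPKM in Huh7 WT and 20.7 and 7.56 FPKM in Huh7 SR. In HepG2 both SR libraries were above both WT libraries, while in Huh7 the SR replicates lay on either side of WT.

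GMNN (ENSG00000112312, chr6:24774931-24786099, plus strand), the inhibitor of CDT1, was found at 22.2 and 41.3 FPKM in HepG2 WT, 53.9 and 47.8 FPKM in HepG2 SR, 26.3 and 22.2 FPKM in Huh7 WT and 44.8 and 40.4 FPKM in Huh7 SR. Its replicates were the closest of the 10 genes, with an SD of 0.33 on the log2 scale, and HepG2 WT replicate 2 lay just above Huh7 SR replicate 2. GMNN exceeded CDT1 in each library. The ratio of the FPKM values was 5.23 and 4.57 in HepG2 WT, 3.52 and 2.95 in HepG2 SR, 4.86 and 10.6 in Huh7 WT and 3.16 and 3.72 in Huh7 SR, so that each SR ratio was under each WT ratio. CDC45 (ENSG00000093009, chr22:19479459-19520612, plus strand), the factor whose arrival converts the loaded ring to the active helicase, had 3.21 and 7.40 FPKM in HepG2 WT, 13.4 and 25.9 FPKM in HepG2 SR, 5.22 and 1.52 FPKM in Huh7 WT and 17.4 and 9.44 FPKM in Huh7 SR. The 4 SR libraries were above the 4 WT libraries, with Huh7 SR replicate 2 again the lowest. Relative to the mean of the 6 ring subunits, CDC45 stood at 0.264 and 0.333 in HepG2 WT, 0.306 and 0.351 in HepG2 SR, 0.235 and 0.145 in Huh7 WT and 0.312 and 0.333 in Huh7 SR. In Huh7 the ratio was higher in both SR libraries, and in HepG2 the groups overlapped.

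**Figure D3:**
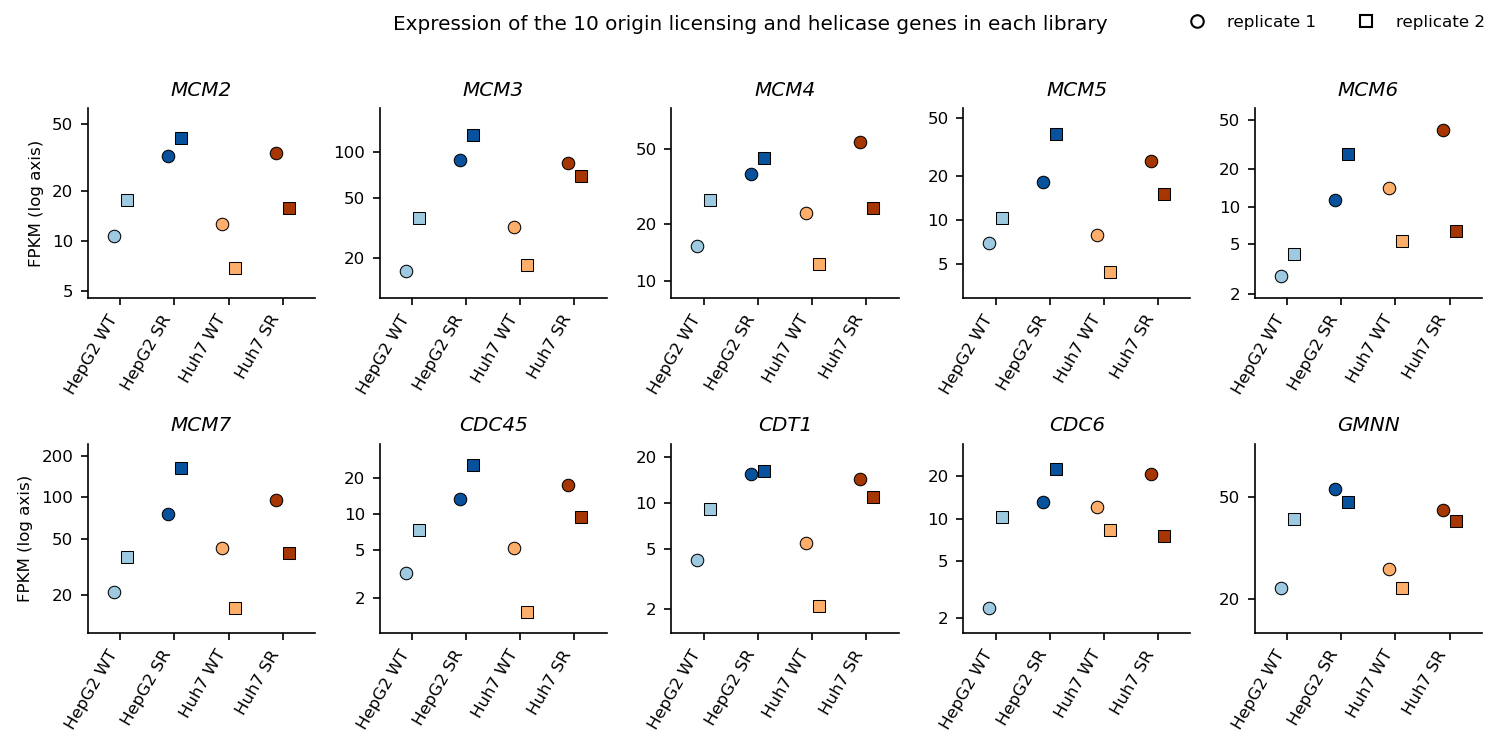
FPKM of each of the 10 genes in the 8 libraries (log axis), with circles for replicate 1 and squares for replicate 2. SR points lay above all WT points for MCM3, MCM5, CDC45 and CDT1, and Huh7 SR replicate 2 was the lowest SR library for all 10 genes.

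To ask which transcripts differ in the resistant cells, SR and WT were compared within each line. The fit was limma on log2(FPKM + 1) with a mean for each group, and a DEG needed p under 0.05 before adjustment and a log2 fold change from 0.5 upward or under -0.5. Fold changes on this scale understate those of weakly expressed genes. All 10 genes had values above 0 in each line, with a median of 1.55 in HepG2 and 1.20 in Huh7, against -0.03 and -0.05 over all tested genes. In HepG2 they ran from 0.73 (GMNN, SE 0.38) to 2.08 (MCM3, SE 0.49), and in Huh7 from 0.30 (CDC6, SE 0.71) to 1.81 (CDC45, SE 0.63). MCM2 stood at 1.34 and 1.22 in HepG2 and Huh7 (SE 0.50 in each), MCM5 at 1.54 and 1.57 (SE 0.51), CDT1 at 1.21 and 1.59 (SE 0.50), and MCM4 at 0.96 and 1.08 (SE 0.52). MCM7 had 1.95 and 1.19 (SE 0.68), MCM6 2.05 and 0.85 (SE 0.89), CDC45 1.72 in HepG2, MCM3 1.63 in Huh7, CDC6 1.56 in HepG2 and GMNN 0.79 in Huh7.

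In HepG2, 6 of the 10 (MCM2, MCM3, MCM5, MCM7, CDC45 and CDT1) were past the DEG thresholds, where 2.14% of all tested genes were, and 0.877% of all tested genes were past them with higher SR. In Huh7, 5 of the 10 were past them, the same genes apart from MCM7, where 1.87% of all tested genes were, and 0.942% of all with higher SR. Averaged over the cell lines, 8 of the 10 were, with MCM6 (1.45, SE 0.63) and CDC6 (0.93, SE 0.50) the exceptions, against 3.93% of all genes, and 1.90% of all with higher SR. The averaged values of the other 8 ran from 0.76 (GMNN, SE 0.27) to 1.85 (MCM3, SE 0.35), with CDC45 at 1.77 (SE 0.45) and CDT1 at 1.40 (SE 0.35), and the median of the 10 was 1.42 against -0.05 over all genes. Nothing is read from these counts, because the choice of the genes fixed their direction. After Benjamini-Hochberg adjustment of the limma values, 0 genes stayed under 0.05 in HepG2, in Huh7 or averaged over the lines. The smallest adjusted p was 0.956, 1 and 0.998, and 325, 283 and 597 genes had an unadjusted p under 0.05.

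Which of the 10 passed the thresholds depended on single libraries, with fold changes that moved much for some genes and little for others. In HepG2, MCM3 alone was past the thresholds without HepG2 WT replicate 1 and without HepG2 SR replicate 2, so that 1 of 10 was called in place of 6, where 73 and 57 of all 15173 genes were. Without HepG2 SR replicate 2, CDT1 still had 1.17 and MCM2 1.16, but MCM5 had 1.01. Without HepG2 WT replicate 1, the HepG2 value was 0.74 for CDT1, 0.68 for CDC6, 0.58 for MCM4 and 0.29 for GMNN. In Huh7, 0 of 10 were called, in place of 5, when either Huh7 WT replicate 2 or Huh7 SR replicate 1 was left out, where 252 and 568 of all genes were. Without Huh7 SR replicate 1, MCM3 still had 1.48 and CDT1 1.41, but MCM2 had 0.69, MCM7 0.57 and MCM4 0.51, and without Huh7 WT replicate 2 MCM7 had 0.49. In the 5 libraries MCM3 lost its Huh7 call at 1.88. Averaged over the lines, 5 of 10 were called without HepG2 WT replicate 1 (193 of all genes) and 10 of 10 without Huh7 SR replicate 2 (523 of all genes). There MCM4 lost its call without HepG2 WT replicate 1 (0.83), HepG2 SR replicate 2 (0.95), Huh7 WT replicate 2 (0.81) or Huh7 SR replicate 1 (0.74), and in the 5 libraries of like expression (0.88). GMNN lost it without HepG2 WT replicate 1 (0.54), HepG2 SR replicate 1 (0.72), Huh7 WT replicate 2 (0.70) or Huh7 SR replicate 1 (0.72) and in the 5 libraries (0.82), and MCM7 without HepG2 WT replicate 1 (1.36) or HepG2 SR replicate 2 (1.30). In the 5 libraries with like expression, 3 (MCM3, MCM6 and MCM7), 3 (MCM5, CDC45 and CDT1) and 6 of 10 were called in HepG2, in Huh7 and averaged, where 473, 1777 and 1439 of all genes were, and the medians were 1.18, 1.18 and 1.21. All 10 genes kept values above 0 in HepG2 and averaged over the lines in each alternative run. For Huh7 SR versus Huh7 WT, MCM6 had -0.41 and CDC6 -0.37 without Huh7 SR replicate 1, and CDC6 had -0.13 in the 5 libraries of like expression. MCM2 lost its Huh7 call without the filter on low values (1.22), with rescaling to TPM (1.18), without the variance trend (1.22) and with each line fitted alone (1.22). It also lost it, at an unmoved 1.22, without any 1 of the 4 HepG2 libraries, and at 1.09 in the 5 libraries. CDT1 lost its HepG2 call with TPM (1.19), with a pseudocount of 0.1 (1.33) and without HepG2 SR replicate 1 (1.25). CDT1 also lost it, at an unmoved 1.21, without either Huh7 SR library. MCM2 lost its HepG2 call without HepG2 SR replicate 1 (1.52). With 1 library left out, the number of DEGs over all genes moved from 325 to between 57 (without HepG2 SR replicate 2) and 1749 (without HepG2 SR replicate 1) in HepG2, and from 283 to between 154 (without HepG2 WT replicate 2) and 818 (without Huh7 WT replicate 1) in Huh7.

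All 4 SR libraries were above all 4 WT libraries for 4 of the 10 genes, MCM3, MCM5, CDC45 and CDT1, as for 230 of the 15173 tested genes (1.52%). For the other 6, the highest WT library was HepG2 WT replicate 2 (MCM2, MCM4 and GMNN) or Huh7 WT replicate 1 (MCM6, MCM7 and CDC6). Without Huh7 SR replicate 2, 9 of the 10 did not overlap, and without HepG2 WT replicate 2, 7 of the 10, as for 553 (3.64%) and 403 (2.66%) of all tested genes, counts chosen after seeing the data. Within same-numbered libraries of a cell line, SR was above WT in each of the 4 pairs for 9 of the 10 genes, as for 9.16% of all tested genes. The exception was CDC6, with log2 differences of 2.06 and 1.05 in HepG2 and 0.73 and -0.13 in Huh7. The pairs of MCM2 (1.5, 1.18, 1.34 and 1.09 in the same order) and MCM5 (1.27, 1.81, 1.56 and 1.57) differed little from one another. Those of MCM6 (1.70, 2.40, 1.48 and 0.22) and CDT1 (1.64, 0.78, 1.24 and 1.94) differed more, and GMNN stood at 1.24, 0.21, 0.75 and 0.83.

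**Figure D4:**
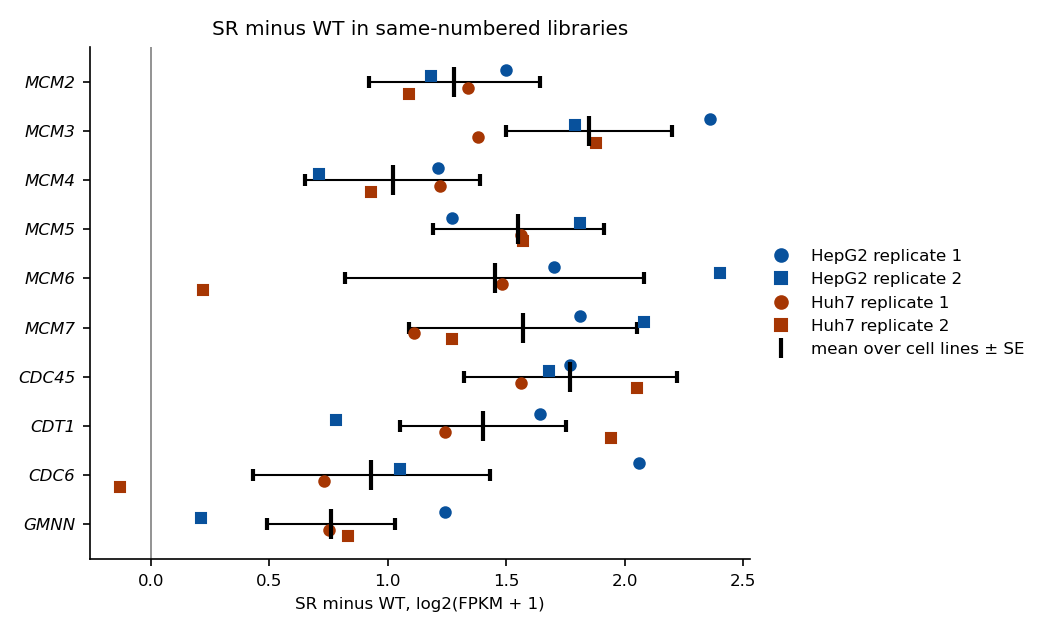
Difference in log2(FPKM + 1) between the SR and the WT library with the same replicate number in each cell line (points), with the SR versus WT value averaged over the cell lines and its SE (bars). The only point under 0 was CDC6 in Huh7 replicate 2, at -0.13.

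Replicates of a group have the same label, so their difference is no part of SR versus WT, though the library values were known when the genes were chosen. The 10 differed together. In HepG2 WT all 10 genes were higher in replicate 2 than in replicate 1, with a median log2 difference of 0.84, where 51.6% of all tested genes were higher and the median was 0.01. In HepG2 SR 9 of the 10 were higher in replicate 2, GMNN being the exception at -0.17, with a median of 0.64, where 46.4% of all genes were higher and the median was -0.05. In Huh7 the order was the opposite. All 10 were lower in Huh7 WT replicate 2 than in replicate 1, with a median of -0.82 where 45.4% of all genes were lower and the median was 0.10. All 10 were also lower in Huh7 SR replicate 2, with a median of -0.93 and a lowest value of -2.52, where 54.7% of all genes were lower and the median was -0.11. Replicates of Huh7 thus differed by an amount of the order of the SR versus WT median of 1.20 in that line. Huh7 WT replicate 1 and Huh7 SR replicate 1, the higher libraries in Huh7, are among the 3 that stood apart, as is HepG2 SR replicate 2. The part of that in these differences was not tested.

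The difference between the cell lines is another contrast of the same libraries than SR versus WT. The values of these libraries were known when the genes were chosen, so it is a description and no test. Averaged over WT and SR, 8 of the 10 genes had values below 0 in Huh7 versus HepG2 and 2 above, from -0.57 (MCM2, SE 0.36) to 0.54 (MCM6, SE 0.63), with a median of -0.36 against 0.03 over all genes. None of the 10 was past the DEG thresholds (0 of 10), where 4.90% of all genes were, and nothing is read from this count. CDT1 had -0.51 (SE 0.35), CDC45 -0.54 (SE 0.45), MCM7 -0.46 (SE 0.48), MCM5 -0.45 (SE 0.36), GMNN -0.28 (SE 0.27), MCM3 -0.25 (SE 0.35), MCM4 -0.20 (SE 0.37) and CDC6 0.22 (SE 0.50). All 10 differences were thus less than 2 SE. The sign turned with single libraries for 4 of the 10, MCM3 to 0.03 without HepG2 WT replicate 2, and MCM4 to 0.01 when Huh7 WT replicate 2 was left out, and to 0.08 without Huh7 SR replicate 2. MCM6 turned to -0.09 without Huh7 SR replicate 1, and CDC6 to -0.22 without HepG2 WT replicate 1 and -0.12 without Huh7 SR replicate 1. Over all genes 0 had an adjusted p under 0.05 and 744 had an unadjusted p under 0.05.

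The SR effect in Huh7 minus that in HepG2 ran from -1.25 (CDC6, SE 1) and -1.20 (MCM6, SE 1.25) to 0.38 (CDT1, SE 0.70), with a median of -0.05 against -0.04 over all genes. Since both effects were known when the genes were chosen, it is a description. Of the 10, 5 were below 0, 5 above and 0 past the thresholds, where 0.606% of all genes were. MCM6 was past them at -2.46 without Huh7 SR replicate 1, and had 0.06 without Huh7 SR replicate 2. CDC6 had -0.38 without HepG2 WT replicate 1 and -2.13 without HepG2 WT replicate 2, MCM3 0.11 and -1.01 in the same runs, and the median of the 10 ran from -0.55 to 0.26 with 1 library left out. MCM5 (0.03, SE 0.73), GMNN (0.06, SE 0.53) and CDC45 (0.08, SE 0.89) had values near 0, but their SE leaves room for differences as large as the effects themselves.

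ORC, which marks origins and recruits CDC6, was described as the nearest group outside the 10. Of its 6 subunits 1 was past the thresholds averaged over the lines (3.93% of all genes were), ORC1, and the median was 0.44. ORC1, the subunit most tied to the cell cycle, measured 1.77 and 3.54 FPKM in HepG2 WT, 6.01 and 17.5 FPKM in HepG2 SR, 5.32 and 1.39 FPKM in Huh7 WT and 11.6 and 3.64 FPKM in Huh7 SR. Huh7 SR replicate 2 was under Huh7 WT replicate 1. ORC1 rose by a log2 fold change of 1.33 (SE 0.54, limma adjusted p = 0.998), in 4 of 4 same-numbered pairs. The call was lost without HepG2 WT replicate 1 (1.15), HepG2 WT replicate 2 (1.51) or HepG2 SR replicate 2 (0.98). It was also lost without Huh7 WT replicate 2 (0.98) or Huh7 SR replicate 1 (0.97). In the 5 libraries of like expression (0.97), without the filter (1.33) and with TPM (1.40) it was lost too. ORC6 had 0.88 (SE 0.38) and ORC3 0.71 (SE 0.33), neither past the thresholds with all libraries. Without HepG2 WT replicate 2 both were (1.30 and 0.94), and ORC3 also was without HepG2 SR replicate 1 (0.93). ORC2 (0.18, SE 0.24), ORC5 (0.18, SE 0.46) and ORC4 (-0.10, SE 0.26) were within 1 SE of 0. ORC5 turned to -0.05 without HepG2 SR replicate 2 and -0.26 without Huh7 SR replicate 1, and ORC4 to 0.08 without HepG2 SR replicate 2. Within each line, 0 of the 6 were past the thresholds, where 2.14% (HepG2) and 1.87% (Huh7) of all tested genes were.

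Of 4 MCM relatives, 0 were past the thresholds with all libraries in any comparison of SR with WT. Of all tested genes 2.14% were in HepG2, 1.87% in Huh7 and 3.93% averaged over the lines. The averaged median of the MCM relatives was 0.42. MCM10, which acts with CDC45 when the helicase is activated, had 1.56 (SE 0.72) and ran from 0.666 FPKM in Huh7 WT replicate 2 to 24.5 FPKM in HepG2 SR replicate 2. It was past the thresholds without HepG2 SR replicate 1 (2.02), Huh7 WT replicate 1 (2.11) or Huh7 SR replicate 2 (2.05) and in the 5 libraries of like expression (1.16), and MCM8 was without HepG2 WT replicate 2 (0.92). MCM8 (0.58, SE 0.35) and MCM9 (-0.13, SE 0.25), which form a helicase of recombination repair, and MCMBP (0.27, SE 0.33), which binds MCM subunits outside chromatin, had smaller values. MCM8 and MCM9 are each overlapped by genes on the other strand, MCM8-AS1 and ASF1A among them, and MCM8 also by RF00019 and AL035461.1 on its strand. Of 7 genes that control licensing, 0 were past the averaged thresholds with all libraries, where 3.93% of all tested genes were, and the median was 0.30. The substrate receptor DTL, through which CDT1 is degraded in S phase, had 1.04 (SE 0.44). SKP2, another receptor for CDT1, had 0.76 (SE 0.63), and FBXO5, an inhibitor of the anaphase-promoting complex, had 0.70 (SE 0.32). DTL was past the thresholds with quantile normalization (1.09), without Huh7 WT replicate 1 (1.41) or Huh7 SR replicate 2 (1.30) and in the 5 libraries (1.10), and FBXO5 was with quantile normalization (0.75) and without HepG2 WT replicate 2 (0.96).

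Of 16 genes of helicase activation, 6 rose averaged over the lines, where 1.90% of all tested genes did, 0 fell, and the median was 0.69. They were RECQL4, GINS2 and CCNA2, named as the 3 of the list with the largest averaged change, and GINS1 of the GINS complex, DBF4 of the DDK kinase and TICRR, likewise named after their values were seen. In HepG2 DBF4 and GINS2 rose (0.877% of all genes did), and in Huh7 GINS1 and RECQL4 (0.942%). RECQL4, a helicase needed for loading CDC45 and GINS, reached 8.81 and 16.0 FPKM in HepG2 WT, 24.5 and 20.7 FPKM in HepG2 SR, 6.21 and 3.90 FPKM in Huh7 WT and 16.0 and 24.3 FPKM in Huh7 SR. Its lowest SR and highest WT libraries both round to 16.0 FPKM, and the SR libraries were otherwise the higher ones. It rose by a log2 fold change of 1.34 (SE 0.30, limma adjusted p = 0.998), a call kept with each library left out. It is overlapped on the other strand by AC084125.4.

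GINS2 rose by 1.26 on the log2 scale (SE 0.40, limma adjusted p = 0.998) and CCNA2, the S phase cyclin A2, by 1.25 (SE 0.42, adjusted p = 0.998). CCNA2 was found at 9.76 and 17.9 FPKM in HepG2 WT, 32.6 and 38.3 FPKM in HepG2 SR, 23.5 and 7.07 FPKM in Huh7 WT and 37.6 and 24.6 FPKM in Huh7 SR, so that its SR and WT libraries did not overlap. GINS2 had 2.23 and 4.96 FPKM in HepG2 WT, 7.72 and 14.9 FPKM in HepG2 SR, 3.21 and 1.25 FPKM in Huh7 WT and 7.72 and 4 FPKM in Huh7 SR, with HepG2 WT replicate 2 above Huh7 SR replicate 2. Leaving out HepG2 WT replicate 1 ended the calls of GINS2 (1.04) and CCNA2 (1.05), as did leaving out HepG2 SR replicate 2 (1.05 and 1.20) or Huh7 SR replicate 1 (1.06 and 1.11). GINS2 also lost it without Huh7 WT replicate 2 (1.04) and in the 5 libraries of like expression (1.07). EXOSC9 overlaps CCNA2 and GSE1 overlaps GINS2, each on the other strand.

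Of 27 genes of the replication fork, 3 rose averaged over the lines, where 1.90% of all tested genes did: PRIM1, named for being among the 3 with the largest averaged change, and the clamp loader subunits RFC2 and RFC4, likewise named after their values were seen. The median was 0.61, and 0 fell. PRIM1, the catalytic primase subunit, measured 2.82 and 8.11 FPKM in HepG2 WT, 12.4 and 24.9 FPKM in HepG2 SR, 10.9 and 4.36 FPKM in Huh7 WT and 16.1 and 11.1 FPKM in Huh7 SR. Its SR libraries were above its WT libraries, with Huh7 SR replicate 2 only just above Huh7 WT replicate 1. It rose by 1.25 on the log2 scale (SE 0.44, limma adjusted p = 0.998), a call lost without HepG2 WT replicate 1 (0.94), HepG2 SR replicate 2 (1.01), Huh7 WT replicate 2 (0.96) or Huh7 SR replicate 1 (1.13), and in the 5 libraries of like expression (1.17). NACA overlaps PRIM1 on its strand. FEN1, the flap endonuclease, had 1.30 (SE 0.58) and RFC3 0.98 (SE 0.56), and FADS2 overlaps FEN1 on its strand. FEN1 was past the averaged thresholds without HepG2 WT replicate 2 (1.68), HepG2 SR replicate 1 (1.63) or Huh7 SR replicate 2 (1.76), and RFC3 without Huh7 WT replicate 1 (1.51). Within lines RFC4, FEN1 and PRIM1 rose in HepG2 (0.877% of all genes did), and PCNA, the sliding clamp, rose in Huh7 (0.942%). PCNA, named after its values were seen, was also past the thresholds between the lines, at -1.11 in Huh7 versus HepG2. No other gene of the lists was, markers aside.

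The E2F and RB family was taken as a list of regulators. Averaged over the lines, 0 of its 13 genes were past the thresholds with all libraries, where 3.93% of all tested genes were. The median was -0.01, near the -0.05 of all genes. E2F8 (1.01, SE 0.45), a repressor that is itself a target of E2F, and E2F1 (0.98, SE 0.44), an activator, had the highest values, above those of CDC6 (0.93) and GMNN (0.76), and TFDP2 had 0.52 (SE 0.25). E2F8 was past the thresholds without Huh7 WT replicate 1 (1.35) or Huh7 SR replicate 2 (1.31) and in the 5 libraries of like expression (0.88), E2F1 without HepG2 WT replicate 2 (1.39) or Huh7 WT replicate 1 (1.26), and TFDP2 without the filter. E2F1 reached 7.59 and 25.4 FPKM in HepG2 WT, 23.0 and 25.3 FPKM in HepG2 SR, 10.6 and 4.40 FPKM in Huh7 WT and 21.3 and 14.5 FPKM in Huh7 SR. HepG2 WT replicate 2 was at the level of the HepG2 SR libraries. Only the RNA of these factors was measured, and not their activity.

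Of 20 mitosis genes, 5 rose averaged over the lines, where 1.90% of all tested genes did: AURKA, then KIF11, named for its likeness to MCM2 to MCM7 in these libraries, and CDC20, CENPF and CCNB2, likewise named after their values were seen. All 20 had values above 0, with a median of 1.16, and 0 fell. This list, like the others, was drawn up with earlier results of these data known, so its direction was not found independently. AURKA, the kinase of centrosome maturation and the spindle, was found at 10.2 and 14.1 FPKM in HepG2 WT, 92.8 and 50.5 FPKM in HepG2 SR, 19.7 and 16.8 FPKM in Huh7 WT and 129 and 59.6 FPKM in Huh7 SR. Its groups did not overlap, its averaged log2 fold change was 2.32 (SE 0.35), and its call was kept with each library left out. AURKB (1.72, SE 0.92) and NUSAP1 (1.59, SE 0.68) were not past the thresholds with all libraries. AURKB was without Huh7 WT replicate 1 (2.67), and NUSAP1 without HepG2 WT replicate 2 (2.04), HepG2 SR replicate 1 (1.94) or Huh7 WT replicate 1 (2.20). Their replicates lay far apart, AURKB at 6.85 and 39.2 FPKM in HepG2 WT and 36.4 and 1.73 FPKM in Huh7 WT.

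The genes outside the 10 whose levels most followed the ring were ranked by Pearson's r over the 8 libraries with the mean standardised profile of MCM2 to MCM7. EBP, an isomerase of cholesterol synthesis, came first with r = 0.994. It had 26.3 and 40.8 FPKM in HepG2 WT, 85.4 and 146 FPKM in HepG2 SR, 44.5 and 22.9 FPKM in Huh7 WT and 107 and 45.7 FPKM in Huh7 SR. Its order of libraries was near that of the summed MCM2 to MCM7, with the highest value in HepG2 SR replicate 2 and the lowest in Huh7 WT replicate 2. MRPL30 (0.987), a protein of the mitochondrial ribosome, the shelterin gene ACD (0.986), the centromere gene CENPM (0.980) and ENSG00000293339 (0.978) followed. The list went on with the noncoding RNA gene DLEU2 (0.973), the splicing gene SNRPA (0.97), the mitotic kinesin KIF11 (0.969), ORC1 (0.967) and the ribonuclease gene RNASEH2A (0.966). The levels of MRPL30 ran only from 9.73 to 16.2 FPKM, and those of KIF11 from 2.61 to 23.1 FPKM, so genes with a narrow and a wide range were both among them. The 8 points share the groups and the libraries that stood apart, and r is given as a description of these libraries. EBP is overlapped on its strand by RF00017, MRPL30 on its strand by AC079447.1 and AC092587.1, and KIF11 on the other strand by RPL11P4. ACD and SNRPA are overlapped on the other strand by CARMIL2 and C19orf54. RNASEH2A is overlapped by THSD8 on its strand and HOOK2 on the other, and DLEU2 by 15 genes. Part of the reads of all these genes thus cannot be told apart from those of the neighbours.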

How the data were processed

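Polyadenylated RNA of 8 libraries was sequenced, and the authors deposited FPKM, fragments scaled by transcript length and library total, per gene and library; the authors used edgeR. The submitters' processing notes name fastp 0.20.0 and GRCh38, and the aligner, quantification tool and annotation are not given in the sources used here. FPKM carry no read totals: converted to reads, between 9.0% and 14.7% of low values came to within 0.02 of an integer where chance gives 4.0%, so reads were not recovered, depth is unknown and no counting intervals are given. Of the 63241 identifiers 62666 (99.1%) had a symbol, and positions came from GENCODE release 29, in which 58228 were found.

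Groups came from the labels. log2(FPKM + 1) of genes that reached FPKM 1 in 2 or more libraries was fitted with limma 3.58.1 in R 4.3.3 (lmFit, eBayes with trend), with 4 group means and 4 residual degrees of freedom. The median posterior SD was 0.484 (log2). DEGs had an unadjusted p under 0.05 and a log2 fold change from 0.5 upward or under -0.5, and Benjamini-Hochberg adjustment covered all tested genes. Contrasts were SR versus WT in each line and averaged, their difference, and Huh7 versus HepG2. The members and the lists (ORC, MCM relatives, licensing control, helicase activation, replication fork, E2F and RB family, mitosis, and the markers) were chosen with earlier results of these data known. Named genes were the 10 members, all ORC genes, MCM8, MCM9, MCM10, E2F1 and AURKA. They also included the 3 genes of each list with the largest averaged change and the 10 most like MCM2 to MCM7. GINS1, DBF4, TICRR, RFC2, RFC4, PCNA, CDC20, CENPF and CCNB2 were named for passing the thresholds. How their calls depend on single libraries is not given. The fit was also run on simulated data with 200 genes changed, and no result given here rests on that run. Alternatives were a pseudocount of 0.1, no filter, TPM, quantile normalization, no trend, each line alone, the replicate number as a block, each library left out, and the 5 libraries of like expression. Leaving out libraries for the counts of genes without overlap was chosen after seeing the data. Tables and figures were made in Python 3.11.15 with NumPy 2.4.6, pandas 2.3.3 and matplotlib 3.10.9, and promoter windows were those of RefSeq (GRCh38.p14).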

Additional observations from a re-analysis of the deposited data

Results flagged for a closer look

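In the search for a library far from the others of its kind, 86 groups of 4 libraries were examined, and 2 held such a value. Chance flags about 1 in 20 groups. ORC3, an ORC subunit, stood at 30.4 FPKM in HepG2 SR replicate 2, against 15.7, 15.3 and 15.3 FPKM in the other 3 SR libraries, a gap of 0.962 of the whole range on the log2 scale. SKP2, an F-box protein, stood at 49.6 FPKM in HepG2 SR replicate 2, against 9.63, 10.5 and 9.17 FPKM in the other 3, a gap of 0.921 of the range. HepG2 SR replicate 2 is also among the 3 libraries that stood apart over all genes, and its part in these values was not tested.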

How the results depend on the processing

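For each change below the cause was not tested. With the replicate block, DEGs numbered 1392 in HepG2 (325 without it), 669 in Huh7 (283), 1509 averaged over the lines (596) and 535 for the difference of SR effects (92), and 9, 7 and 10 of the 10 members were called in the first 3. The block also put ORC6, ORC3, MCM10, DTL, SKP2, FEN1, RFC3, E2F8, E2F1, AURKB and NUSAP1 past the averaged thresholds. Deviations of same-numbered libraries correlated at 0.12 in HepG2 and 0.80 in Huh7, with 2 pairs each, too few to tell whether same-numbered libraries belong together; blocks nest in the lines, so Huh7 versus HepG2 could not be fitted. With each line alone Huh7 had 124 DEGs. The 5 libraries of like expression leave 1 library in 3 of the 4 groups, so the spread comes from HepG2 WT alone. There DEGs numbered 1777 in Huh7, 1439 averaged, 940 for the difference and 1263 for Huh7 versus HepG2 (744), and 1407 genes had SR above WT without overlap (230 with all libraries), a count that rises as fewer libraries have to separate. There MCM6 had -0.12 and CDC6 -0.05 in Huh7 versus HepG2, and averaged SR versus WT was 0.04 for ORC4 and -0.34 for ORC5. Without the filter, with 46423 genes tested, the difference had 168 DEGs. Rescaling to TPM also changed which genes passed the filter (18614 tested, against 15173), so the parts of scaling and filter cannot be told apart. There the difference had 152 DEGs, and SR versus WT had 105 higher and 344 lower in HepG2 (133 and 192 in FPKM), 120 and 218 in Huh7 (143 and 140) and 218 and 509 averaged (288 and 308). Leaving out each library gave 57 to 1749 DEGs in HepG2, 154 to 818 in Huh7, 193 to 1277 averaged, 24 to 945 for the difference and 236 to 1735 for Huh7 versus HepG2. It gave 310 to 574 genes and 4 to 9 members without overlap. The median difference of SR effects of the members ran from -0.55 to 0.26. Signs turned in Huh7 versus HepG2 for MCM3 (-0.53 without HepG2 WT replicate 1 to 0.03 without HepG2 WT replicate 2), MCM4 (-0.48 without Huh7 SR replicate 1, 0.01 without Huh7 WT replicate 2, 0.08 without Huh7 SR replicate 2), MCM6 (-0.09 without Huh7 SR replicate 1 and up to 1.17 without Huh7 SR replicate 2) and CDC6 (-0.22 without HepG2 WT replicate 1 to 0.66 without HepG2 WT replicate 2, and -0.12 without Huh7 SR replicate 1). SR versus WT averaged over the cell lines turned for ORC4 (-0.27 without HepG2 SR replicate 1 to 0.08 without HepG2 SR replicate 2) and ORC5 (-0.26 without Huh7 SR replicate 1, -0.05 without HepG2 SR replicate 2 and up to 0.63 without Huh7 SR replicate 2). Medians of the 10 members of SR versus WT stayed above 0 with each library left out, at 1.11 to 2.01 in HepG2, 0.70 to 1.77 in Huh7 and 1.14 to 1.70 averaged. A group with 1 library left was assumed to vary like the others, and with 2 libraries a group and unknown depth, low levels such as those of CDC45 in Huh7 WT have no interval.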
